A study of Mus musculus with 24 samples.

Results

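In the mouse mammary carcinoma line EO771, 36 genes stood low in the double-positive cells, which had both the chemokine receptor CCR7 and the membrane glycoprotein podoplanin (PDPN), and higher in each of the other derivatives sequenced beside them. They ranged from Ly6e, a membrane protein at 154 CPM (counts per 1000000 counts of the library) in control cells and 23.0 in double-positive cells, to genes such as Thbs2, a matrix glycoprotein that went from 2.23 to 0.113 CPM. The genes were chosen by level: CPM was the count divided by the library total, averaged over the 4 libraries of a group, and a gene was taken when the CCR7-PDPN mean was at most 1/3 of the X2 and of the CCR7 mean in batch 1 and at most 1/3 of the X2 and of the X2-PDPN mean in batch 2. Each of these 4 reference means also had to reach 1 CPM. Of 13915 genes counted in both batches, 10924 reached that level and 36 met all 4 ratios. Since those 4 comparisons chose the genes, their values are given as a description, and tests of the members were confined to CCR7 against X2 and to X2-PDPN against X2, together with the difference between these.

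Polyadenylated RNA of 4 derivatives of EO771, a line from a spontaneous mammary tumour of a C57BL/6 mouse, was sequenced in 24 libraries and 2 batches. X2 cells carried the retroviral vector without Ccr7, and CCR7 cells carried mouse Ccr7 from the same vector and were sorted without surface PDPN. CCR7-PDPN cells were sorted from the Ccr7-transduced cells, and X2-PDPN cells from the X2 cells, for PDPN that had come up without any transgene. X2 and CCR7-PDPN were sequenced in both batches, CCR7 in batch 1 only and X2-PDPN in batch 2 only, with 4 libraries in each of these 6 groups. No clones were picked, so each derivative was 1 sorted population, and its 4 libraries were technical replicates. The p-values therefore measure the spread between these libraries, not between independently made cell populations, and in bulk RNA fewer cells expressing a gene cannot be told apart from less RNA per cell.

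Library totals lay between 22275468 and 35721027 counts, at which the 3 counts used as a floor correspond to at most 0.135 CPM. Ccr7 stood at 2791 ± 45.8 CPM (SD, n = 4) in CCR7, 2999.9 ± 153 and 3145 ± 179 in CCR7-PDPN of batches 1 and 2, and at or under 0.662 in the means of the other groups. Pdpn stood at 25.3 ± 1.54 and 24.4 ± 0.915 CPM in CCR7-PDPN and 25.7 ± 0.187 in X2-PDPN, against at most 0.413 elsewhere. Within CCR7, replicate 1 stood apart from the other 3 libraries, since the chi-square of its counts against theirs, divided by the degrees of freedom, was 15.0 to 25.1, where pairs of libraries in the other groups gave 2.17 to 7.83. CCR7 replicates 2 and 3 also lay above that range, at 9.35, so leaving out replicate 1 does not remove all the extra spread of CCR7. The labels call the cells mammary tumour cells. Of the epithelial markers Krt8 was high, with group means of 225 to 295 CPM, while Epcam had at most 2 counts and Krt18 at most 9 in any batch 1 library.

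The products of the 36 genes have varied known roles. Several encode regulators known from connective tissue and limb mesenchyme (Prrx1, Tbx4, Gli2), others inflammatory caspases and surface proteins better known from blood cells (Ly6e, Ly6c1, Ly9, Fcer2a), and others scaffold, cytoskeletal or signalling proteins best studied in neurons (Shank2, Cyfip2, Mapt, Chn1). Il7 encodes interleukin-7, a survival cytokine for lymphocytes that fibroblastic reticular cells of the lymph node, themselves PDPN-positive, are known to make. Sorting them by what their products do, 8 act in transcription or chromatin, 8 are surface proteins or a cytokine, 5 are signalling enzymes and regulators, 4 are scaffold or cytoskeletal proteins, 3 act in cell death, 3 in the extracellular matrix and 5 in metabolism or other processes.

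Il7, Bicd1 and Bche had been proposed as marks of the pattern, and the rule took in Il7 alone. Il7 (ENSMUSG00000040329, chromosome 3, 7569994 to 7613760, GRCm38) had 2.60, 2.51, 2.95 and 2.72 CPM in the X2 libraries of batch 1, 2.62, 2.55, 2.52 and 2.78 in CCR7 and 0.125, 0.191, 0.210 and 0.0668 in CCR7-PDPN. In batch 2 it had 2.53, 2.11, 3.03 and 2.33 CPM in X2, 2.59, 2.52, 3.25 and 2.76 in X2-PDPN and 0.263, 0.319, 0.188 and 0.218 in CCR7-PDPN. Every double-positive library lay far under every other library, and the 4 reference groups overlapped one another. Neither single-marker derivative was called different from X2 for Il7 (log2 fold change -0.03, SE 0.13, adjusted p = 0.860 for CCR7, and log2 fold change 0.15, SE 0.14, adjusted p = 0.364 for X2-PDPN, Benjamini-Hochberg adjusted, from the quasi-likelihood tests of edgeR). CCR7-PDPN libraries had 2 to 6 counts of Il7 in batch 1 and 6 to 10 in batch 2, so its level there is known only roughly.

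Bicd1 (ENSMUSG00000003452, chromosome 6, 149408886 to 149563329), an adaptor that links cargo to the dynein motor, had 4.53, 5.28, 4.33 and 5.09 CPM in X2, 7.06, 7.67, 7.37 and 8.66 in CCR7 and 0.625, 0.540, 0.454 and 0.334 in CCR7-PDPN of batch 1. In batch 2 its values were 3.46, 3.58, 4.68 and 5.13 CPM in X2, 1.08, 0.812, 1.05 and 1.03 in X2-PDPN and 0.483, 0.542, 0.565 and 0.327 in CCR7-PDPN. It was thus low in both PDPN-sorted derivatives and fell already in X2-PDPN (log2 fold change -2.09, SE 0.16, adjusted p = 7.12e-15, edgeR), where its mean was under 1 CPM. Bche (ENSMUSG00000027792, chromosome 3, 73635808 to 73708415), a secreted cholinesterase, had 0.386, 0.251, 0.257 and 0.413 CPM in X2, 6.28, 6.95, 6.44 and 6.73 in CCR7 and 0.407, 0.604, 0.524 and 0.334 in CCR7-PDPN of batch 1. In batch 2 it had 0.298, 0.251, 0.264 and 0.167 CPM in X2, 0.0656, 0.0840, 0.102 and 0.0735 in X2-PDPN and 0.570, 0.701, 0.346 and 0.509 in CCR7-PDPN. Bche was high in CCR7 cells alone among the groups, where it rose over X2 (log2 fold change 4.33, SE 0.17, adjusted p = 5.21e-15, edgeR), and its CCR7-PDPN libraries of batch 1 overlapped those of X2. Il7 is therefore the only one of these 3 that matched the pattern, and its low level in the double-positive cells was chosen by the rule and not tested.

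Promoter sequences were compared to see what the genes share that the rule did not use. RefSeq promoters of GRCm38.p6, from 250 bases before to 50 after a start, were matched by symbol for 27 of the 36 genes and gave 40 promoters. The 9 members without an entry were Adamts7, Clec1a, Il7, Ly6e, Ly9, Mapt, Nsd1, Pmaip1 and Shank2. The sequences below are those of 4 members whose CCR7-PDPN level was among the lowest relative to X2 and which had 1 entry each, chosen after their values were seen, and of Bicd1 and Bche. Capitals mark TATAAA or GGGCGG on either strand.
Tbx4, chr11:85896515-85896814, plus strand: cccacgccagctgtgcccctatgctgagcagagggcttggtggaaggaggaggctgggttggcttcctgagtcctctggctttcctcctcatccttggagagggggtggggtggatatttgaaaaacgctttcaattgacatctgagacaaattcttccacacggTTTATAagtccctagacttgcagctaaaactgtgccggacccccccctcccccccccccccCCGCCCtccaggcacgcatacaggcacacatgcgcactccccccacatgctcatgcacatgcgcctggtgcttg
Thbs2, chr17:14694213-14694512, minus strand: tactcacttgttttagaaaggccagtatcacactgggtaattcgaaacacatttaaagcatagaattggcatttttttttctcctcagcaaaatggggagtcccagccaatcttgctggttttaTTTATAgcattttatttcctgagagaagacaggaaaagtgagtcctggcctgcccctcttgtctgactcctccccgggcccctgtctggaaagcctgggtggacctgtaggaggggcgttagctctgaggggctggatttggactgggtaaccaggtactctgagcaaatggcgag
Gli2, chr1:119053570-119053869, minus strand: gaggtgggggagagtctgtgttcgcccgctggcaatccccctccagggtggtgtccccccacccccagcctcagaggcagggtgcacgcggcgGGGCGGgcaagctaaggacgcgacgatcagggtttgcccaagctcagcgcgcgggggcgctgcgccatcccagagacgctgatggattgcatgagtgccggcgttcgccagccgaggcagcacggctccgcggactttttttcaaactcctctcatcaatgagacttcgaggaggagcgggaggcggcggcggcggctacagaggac
Aig1, chr10:13868908-13869207, minus strand: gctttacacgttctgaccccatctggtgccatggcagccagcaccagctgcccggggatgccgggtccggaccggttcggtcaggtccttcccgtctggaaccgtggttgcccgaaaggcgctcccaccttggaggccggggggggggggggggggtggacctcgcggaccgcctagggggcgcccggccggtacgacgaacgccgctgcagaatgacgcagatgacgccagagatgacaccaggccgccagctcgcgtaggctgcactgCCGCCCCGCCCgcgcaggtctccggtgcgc
Bicd1, chr6:149408734-149409033, plus strand: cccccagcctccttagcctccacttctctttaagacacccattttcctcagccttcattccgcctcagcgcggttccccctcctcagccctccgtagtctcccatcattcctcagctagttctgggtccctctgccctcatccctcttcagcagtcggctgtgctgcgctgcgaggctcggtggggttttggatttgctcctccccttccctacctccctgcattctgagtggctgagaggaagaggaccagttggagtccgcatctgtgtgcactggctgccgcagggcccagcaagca
Bche, chr3:73708366-73708665, minus strand: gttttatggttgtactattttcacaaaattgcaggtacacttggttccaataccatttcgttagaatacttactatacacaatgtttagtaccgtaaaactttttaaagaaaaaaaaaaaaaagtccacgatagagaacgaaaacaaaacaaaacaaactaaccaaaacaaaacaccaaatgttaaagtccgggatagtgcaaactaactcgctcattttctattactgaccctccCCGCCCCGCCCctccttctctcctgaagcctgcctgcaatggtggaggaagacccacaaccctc

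The Tbx4 entry lies inside the annotated gene, at an alternative start. Tbx4 and Thbs2 hold TATAAA, on the strand opposite to the one printed, and few CG pairs, with observed CG over the number expected from base content at 0.314 and 0.230, whereas Gli2 and Aig1 hold GGGCGG, as Tbx4 does too, and stand at 0.830 and 0.832. Both promoter kinds were thus present among these members, whose low level in CCR7-PDPN was set by the rule. Over the 40 promoters the median CG ratio was 0.403, against 0.773 for 10873 promoters, which covered 8488 of the 10924 genes, and 37.5% had a ratio of at least 0.6 against 72.9%. Members were also expressed at a lower level than most genes, with a median of 4.53 CPM over the 4 reference groups against 43.9, so the same was computed among genes under 10 CPM. There 35 promoters of 29 members had a median CG ratio of 0.384 against 0.634 for 1702 promoters, and 31.4% against 54.2% reached 0.6.

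Short motifs were counted on both strands of the 300 bases. TATAAA was in 17.5% of member promoters and 6.57% of all 10873, GGGCGG in 37.5% and 64.9%, and the E-box CANNTG in 75% and 62.2%. The interferon-response core, GAAA repeated after 2 bases of any kind, was in 5% against 2.78%, the STAT core TTCNNNGAA in 7.5% against 6.59%, and the AP-1 core TGANTCA in 10% against 4.91%. These 3 shares rest on only 2, 3 and 4 of the 40 member promoters, the AP-1 ones from Fam107b, Fcer2a and Map2k6. None of these motifs contains another, and several promoters of 1 gene share sequence. Under 10 CPM the shares were 17.1% against 8.23% for TATAAA and 34.3% against 54.7% for GGGCGG, so the gap was smaller among genes of low level. Genes of the set also spanned more genome, with a median of 44.4 kb against 22.6 kb, and 40.2 kb against 12.9 kb under 10 CPM.

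Relative to X2, members stood a median of 8.36 times lower in CCR7-PDPN of batch 1 and 7.92 times lower in batch 2, with ranges of 3.04 to 56.6 and 3.09 to 39.6. Against CCR7 the median was 4.61 (3.04 to 23.4), and against X2-PDPN it was 5.81 (3.09 to 40.2). For each of the 36 genes, every CCR7-PDPN library lay under every reference library of its batch, which the ratios of 1/3 nearly force. CCR7 was the closest reference for 20 genes, X2-PDPN for 8 and X2 for the other 8. The log2 ratio of CCR7-PDPN to X2 differed between batches by 0.15 (median) and by at most 0.87, for Pmaip1.

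Every CCR7-PDPN library had at least 1 count for every member, but some had no more than the floor of 3 counts, as for Thbs2 (at least 1), Pmaip1, Tbx4 and Il7 (at least 2), which does not show whether the cells still express these genes. On the TPM scale, which divides by gene length and so allows genes to be compared, 27 members stood under 1 TPM in CCR7-PDPN of both batches, and 18 of these were at 1 TPM or more in all 4 reference groups. Ly6e kept the highest level in the double-positive cells, at 22.7 and 21.0 TPM, followed by Rhd at 5.07 and 5.33. Esr1 was lowest of the members in batch 1, at 0.0399 TPM.

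**Figure D1:**
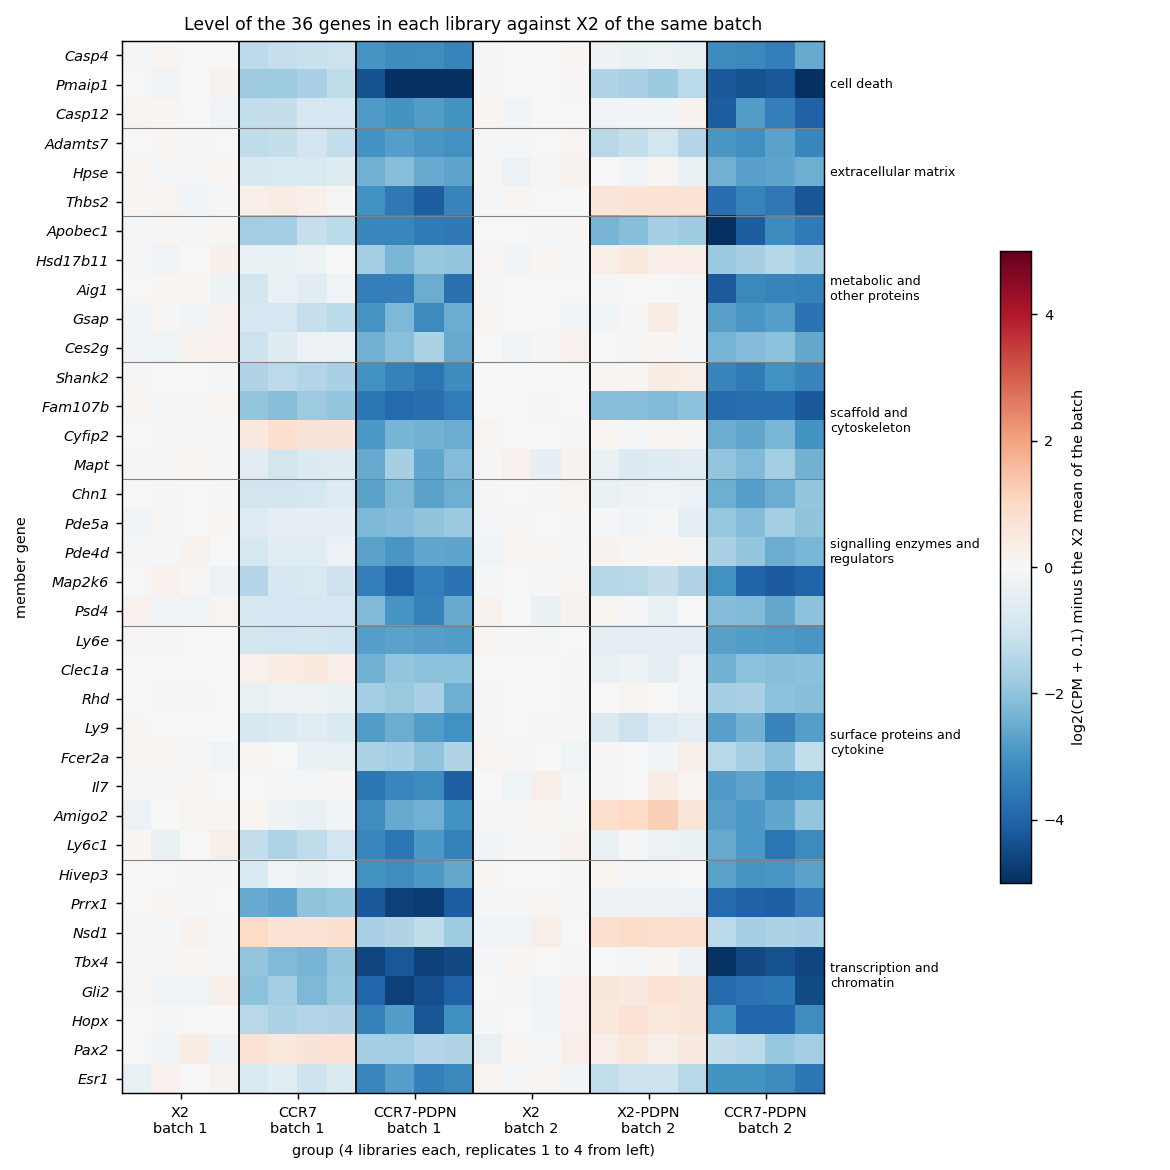
Each cell gives log2(CPM + 0.1) of a gene in 1 library minus the X2 mean of that batch, with the 36 genes in rows by role and the 24 libraries in columns by group, values under -5 taking the end colour. The CCR7-PDPN columns are blue in every row, and the CCR7 columns are pale blue in most rows while the X2-PDPN columns are mixed.

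CCR7 and X2-PDPN, each against X2, were ratios that the rule did not use, and they asked whether members already differed in cells with 1 of the markers. Their group means are still the reference means of the rule, so the members' counts are not free of it. The shares over all genes are given beside them as a description, here and for the difference between these changes. All 36 passed the filter on low counts in each fit. A call needed both an absolute log2 fold change over 1 and an adjusted p below 0.05, the thresholds of the study, while rose and fell are written of any change with an adjusted p under 0.05. In CCR7, 14 of the 36 genes were called lower than X2 and 0 higher, where 3.18% of the 13261 genes tested were called lower and 3.30% higher. The members' median log2 fold change was -0.77, against 0.00 over all genes. By the adjusted p alone 27 were lower and 4 higher (also 27 and 4 at an unadjusted p under 0.05), where all genes gave 25.2% and 24%, and the 4 were Clec1a, Cyfip2, Nsd1 and Pax2. Without CCR7 replicate 1, which stood apart, 12 members were called lower and 0 higher, the adjusted p alone gave 26 lower and 4 higher, and the median was -0.76. The rule itself limits how far a member can fall in CCR7, since CCR7 had to stay at 1 CPM or more and at 3 times CCR7-PDPN or more.

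In X2-PDPN, 6 of the 36 were called lower than X2 and 0 higher, where 1.55% of 13314 genes were called lower and 3.51% higher. Their median log2 fold change was -0.06, against 0.00 over all genes. By the adjusted p alone 13 were lower and 8 higher, the same as at an unadjusted p under 0.05, against 28.5% and 28.2% of all genes. DESeq2, run as an alternative, also called 0 of the 36 higher in either derivative. Fam107b, Adamts7, Apobec1, Pmaip1 and Map2k6 were called lower in both single-marker cells, Esr1 in X2-PDPN, and Shank2, Prrx1, Casp4, Tbx4, Gli2, Hopx, Casp12, Gsap and Ly6c1 in CCR7. A call in 1 derivative does not set it apart from the other, since Esr1, Prrx1 and Casp4 passed the adjusted p as lower in both, and the difference between derivatives was not called for Esr1, Casp4 or Casp12. The remaining 21 were called in neither. By the adjusted p alone, 12 genes were lower in both derivatives and 28 of the 36 in at least 1 of them, 15 of these past the fold threshold too. At the adjusted p alone, a level under X2 was thus not particular to the double-positive cells for most of the set. It was also common among all genes, of which 25.2% were lower in CCR7 and 28.5% in X2-PDPN. The share of all genes lower in both or in either was not computed. Both comparisons have X2 as their control, but of different batches.

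**Figure D2:**
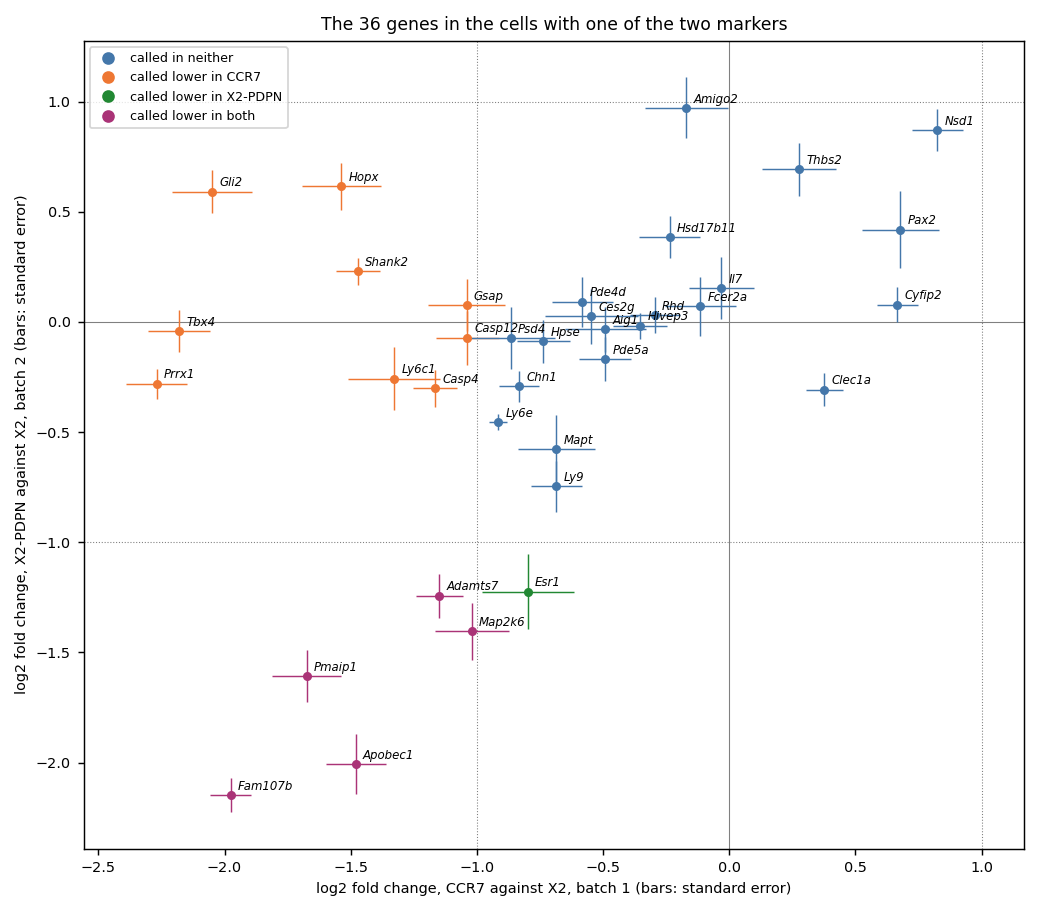
Log2 fold change against X2 in CCR7 (x axis, batch 1) and in X2-PDPN (y axis, batch 2) for the 36 genes, with standard errors, dotted lines at the fold threshold and colours by call. A group with Gli2, Hopx, Tbx4 and Prrx1 is low in CCR7 and near or above X2 in X2-PDPN, 5 genes are low in both, and Il7 lies close to 0 on both axes.

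The difference between these changes was itself tested over all 24 libraries, as the X2-PDPN change of batch 2 minus the CCR7 change of batch 1. It was above 1 on the log2 scale with an adjusted p under 0.05 for 8 of the 36 genes and under -1 for 0, where 4.83% and 3.08% of the 13690 genes tested were. Gli2 had the largest (difference 2.64, SE 0.18, adjusted p = 4.17e-15, edgeR), followed by Hopx (2.15), Tbx4 (2.14), Prrx1 (1.99), Shank2 (1.70), Amigo2 (1.14), Gsap (1.11) and Ly6c1 (1.07). The last lay under 1 without X2 replicate 4 (0.96) or CCR7 replicate 2 (0.98) of batch 1 or X2-PDPN replicate 2 (0.997), and Casp12, at 0.96, lay above 1 without X2 replicate 4, CCR7 replicate 3, CCR7 replicate 4 or X2-PDPN replicate 1 (1.01 to 1.05). By the adjusted p alone 20 differed upwards and 3 downwards, Clec1a, Cyfip2 and Apobec1, where 23.3% and 23.5% of all genes did (22 and 3 members at an unadjusted p under 0.05). DESeq2 also called 0 members downwards. Without CCR7 replicate 1 the test called 8 upwards and 0 downwards, and the adjusted p alone gave 18 and 4. This difference sets cells of one batch against cells of the other, each relative to its own X2.

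Among the 8 regulators of transcription and chromatin, Hivep3 (ENSMUSG00000028634, chromosome 4, 119733784 to 120138045), a large zinc-finger protein, had the highest CPM. It stood at 19.2, 19.2, 20.2 and 18.3 CPM in X2, 11.2, 16.9, 15.1 and 16.5 in CCR7 and 2.35, 2.16, 2.55 and 3.20 in CCR7-PDPN of batch 1. In batch 2 it stood at 19.6, 18.5, 18.8 and 17.4 CPM in X2, 20.0, 17.1, 17.8 and 18.1 in X2-PDPN and 2.85, 2.29, 2.36 and 2.80 in CCR7-PDPN. X2 and X2-PDPN overlapped, and CCR7 libraries all lay under those of X2 (log2 fold change -0.35, SE 0.11, adjusted p = 0.0129, edgeR), replicate 1 most of all, without which the log2 fold change was -0.23. Prrx1 (ENSMUSG00000026586, chromosome 1, 163245119 to 163313710), a homeobox factor of mesenchyme, had 12.7, 13.5, 12.1 and 12.8 CPM in X2, 2.12, 1.99, 3.11 and 3.32 in CCR7 and 0.594, 0.413, 0.384 and 0.634 in CCR7-PDPN of batch 1. Its batch 2 values were 12.6, 12.3, 14.4 and 13.9 CPM in X2, 11.0, 10.8, 10.8 and 10.9 in X2-PDPN and 0.834, 0.701, 0.691 and 1.02 in CCR7-PDPN. Prrx1 was stepwise in batch 1, falling in CCR7 (log2 fold change -2.27, SE 0.12, adjusted p = 9.16e-13, edgeR) and standing lower again in CCR7-PDPN, whereas X2-PDPN differed little from X2 (log2 fold change -0.28, SE 0.07, adjusted p = 0.000514, edgeR).

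Tbx4 (ENSMUSG00000000094, chromosome 11, 85886422 to 85916097), a T-box factor of hindlimb and lung mesenchyme, and Gli2 (ENSMUSG00000048402, chromosome 1, 118834132 to 119053619), a transcription factor of Hedgehog signalling, followed the same steps. Tbx4 went from 6.04 ± 0.382 CPM in X2 (SD, n = 4) to 1.32 ± 0.182 in CCR7 and 0.171 ± 0.0358 in CCR7-PDPN, and in batch 2 from 5.75 ± 0.370 in X2 and 5.54 ± 0.519 in X2-PDPN to 0.145 ± 0.0423. Gli2 went from 4.95 ± 0.768 CPM in X2 to 1.19 ± 0.210 in CCR7 and 0.164 ± 0.0567 in CCR7-PDPN, and 4.57 ± 0.534, 6.85 ± 0.492 and 0.217 ± 0.0761 in X2, X2-PDPN and CCR7-PDPN of batch 2. Hopx, a small homeodomain protein that does not itself bind DNA, was 3.86 ± 0.0870, 1.31 ± 0.0826 and 0.307 ± 0.157 CPM in X2, CCR7 and CCR7-PDPN of batch 1 and 3.94 ± 0.490, 5.99 ± 0.371 and 0.269 ± 0.128 in X2, X2-PDPN and CCR7-PDPN of batch 2. All 3 fell in CCR7, and Gli2 and Hopx passed the adjusted p in the other direction in X2-PDPN, with log2 fold changes of 0.59 and 0.62. Gli2 and Hopx were among the 8 members higher than X2 in X2-PDPN by the adjusted p. Their level below CCR7 in CCR7-PDPN was required by the rule, as for every member.

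Nsd1, a histone methyltransferase, and Pax2, a factor of kidney development, ran the other way in the single-marker cells. Nsd1 was 4.40 ± 0.402 CPM in X2, 7.71 ± 0.793 in CCR7 and 1.45 ± 0.233 in CCR7-PDPN of batch 1, and 4.32 ± 0.650, 7.87 ± 0.293 and 1.40 ± 0.154 in X2, X2-PDPN and CCR7-PDPN of batch 2. It rose in CCR7 (log2 fold change 0.82, SE 0.10, adjusted p = 5.73e-07, edgeR) and in X2-PDPN (log2 fold change 0.87, SE 0.09, adjusted p = 1.07e-10), yet was lowest in the cells with both markers. Pax2 did likewise at a lower level, with log2 fold changes of 0.68 and 0.42. Esr1, the oestrogen receptor, was 2.10 ± 0.382 CPM in X2, 1.19 ± 0.185 in CCR7 and 0.146 ± 0.0520 in CCR7-PDPN of batch 1, and fell in X2-PDPN from 2.45 ± 0.242 to 1.03 ± 0.125 CPM (log2 fold change -1.22, SE 0.17, adjusted p = 4.24e-08, edgeR). At 0.569 TPM in X2 it was the member with the lowest level per length in those cells.

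Among the 8 members that are surface proteins or a cytokine, Ly6e (ENSMUSG00000022587, chromosome 15, 74955051 to 74959905), a protein anchored to the membrane by a glycolipid, was the only one above 100 CPM in X2. It had 161, 146, 156 and 155 CPM in X2, 82.5, 80.4, 81.8 and 78.1 in CCR7 and 23.0, 24.1, 22.6 and 22.4 in CCR7-PDPN of batch 1. In batch 2 it had 164, 146, 141 and 154 CPM in X2, 107, 111, 111 and 109 in X2-PDPN and 22.8, 21.4, 21.2 and 20.2 in CCR7-PDPN. The groups of each batch did not overlap, and both single-marker cells were lower than X2 (log2 fold change -0.92, SE 0.04, adjusted p = 5.91e-15 for CCR7, and log2 fold change -0.45, SE 0.04, adjusted p = 3.24e-13 for X2-PDPN, edgeR). Clec1a (ENSMUSG00000033082, chromosome 6, 129424772 to 129452000), a C-type lectin receptor, had 10.3, 10.1, 10.3 and 10.3 CPM in X2, 11.9, 13.2, 14.5 and 12.8 in CCR7 and 1.88, 2.51, 2.41 and 2.40 in CCR7-PDPN of batch 1. Its batch 2 values were 10.6, 10.6, 10.7 and 11.3 CPM in X2, 8.39, 8.99, 7.79 and 9.56 in X2-PDPN and 2.02, 2.55, 2.39 and 2.44 in CCR7-PDPN. Clec1a was higher in CCR7 than in X2 (log2 fold change 0.38, SE 0.07, adjusted p = 0.000227) and lower in X2-PDPN (log2 fold change -0.31, SE 0.07, adjusted p = 0.000490, edgeR), each under the fold threshold.

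Rhd (ENSMUSG00000028825, chromosome 4, 134864536 to 134896172), the RhD blood-group protein of red cells, had 8.39, 7.66, 8.60 and 8.09 CPM in X2, 6.34, 6.71, 6.77 and 6.55 in CCR7 and 2.44, 2.19, 2.62 and 1.44 in CCR7-PDPN of batch 1. In batch 2 Rhd had 8.16, 8.56, 8.41 and 8.87 CPM in X2, 8.66, 9.43, 8.50 and 7.80 in X2-PDPN and 2.63, 2.68, 1.98 and 1.86 in CCR7-PDPN. X2 and X2-PDPN overlapped, and CCR7 lay a little lower (-0.29 on the log2 scale). Ly9, a SLAM-family receptor, fell in both single-marker cells by similar amounts (-0.68 and -0.75 on the log2 scale), from 5.84 ± 0.249 CPM in X2 of batch 1 and 5.98 ± 0.294 of batch 2. Amigo2, an adhesion protein, was 2.03 ± 0.152, 3.95 ± 0.696 and 0.275 ± 0.111 CPM in X2, X2-PDPN and CCR7-PDPN of batch 2, and 2.11 ± 0.295, 1.85 ± 0.272 and 0.231 ± 0.0809 in X2, CCR7 and CCR7-PDPN of batch 1. It rose in X2-PDPN (log2 fold change 0.97, SE 0.14, adjusted p = 7.39e-08, edgeR). Fcer2a, the low-affinity IgE receptor, was with Il7 the other member that passed the adjusted p in neither single-marker cell, with log2 fold changes of -0.11 and 0.07. It stood at 2.82 ± 0.317 CPM in X2 and 0.816 ± 0.133 in CCR7-PDPN of batch 1.

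**Figure D3:**
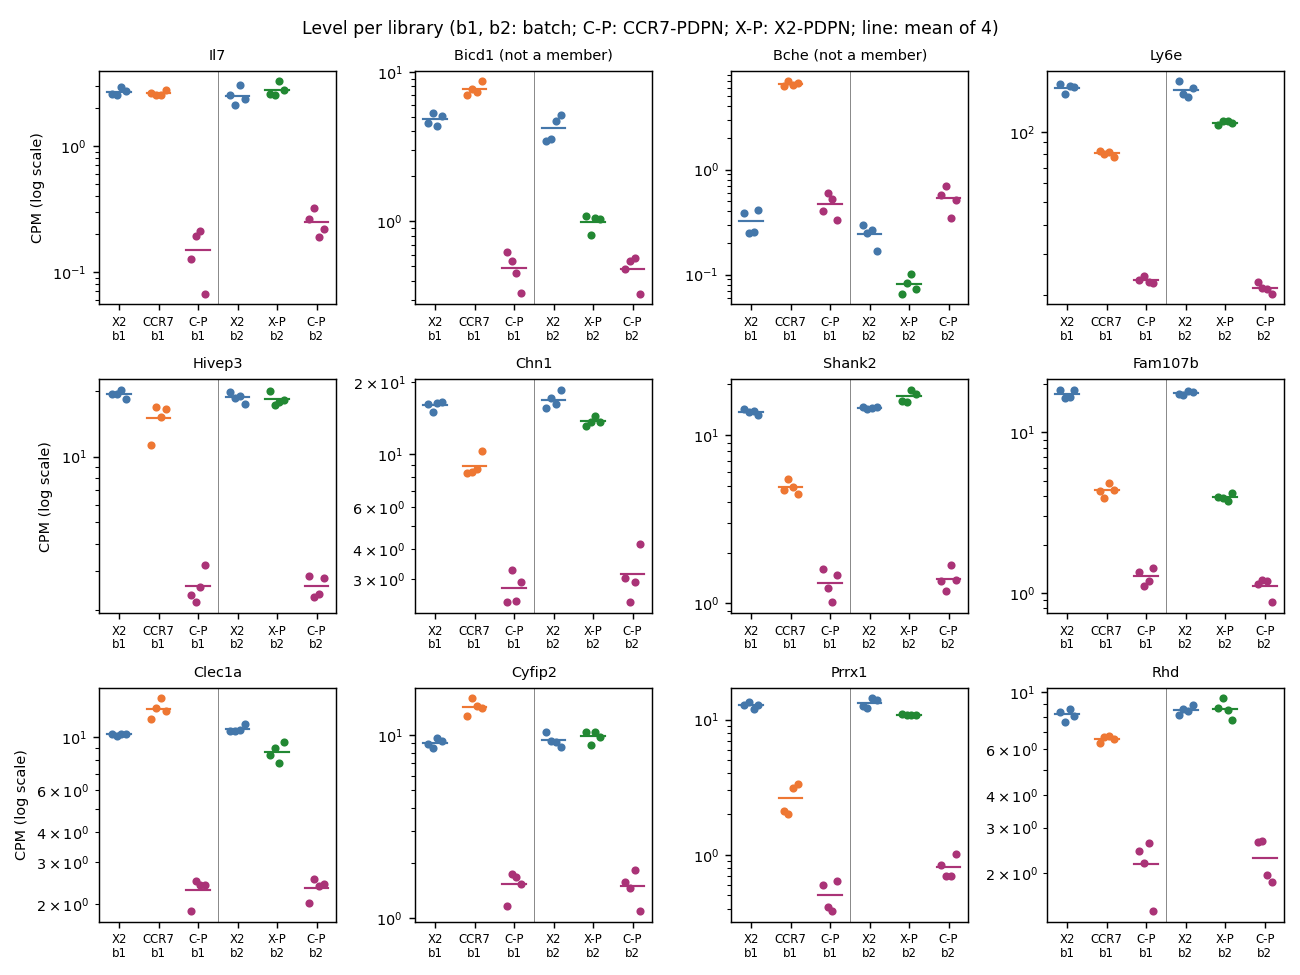
CPM on a log axis in each of the 24 libraries (points) with the mean of 4 (line), for the 3 proposed marks and the 9 members of highest level in the reference groups. Il7 is flat outside CCR7-PDPN, Bicd1 is already low in X2-PDPN, and Bche is high in CCR7 alone.

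The signalling members included Chn1 (ENSMUSG00000056486, chromosome 2, 73610660 to 73775346), a GTPase-activating protein for Rac. Chn1 had 16.1, 15.0, 16.4 and 16.5 CPM in X2, 8.37, 8.43, 8.62 and 10.3 in CCR7 and 2.41, 3.27, 2.41 and 2.90 in CCR7-PDPN of batch 1. In batch 2 the values were 15.5, 17.3, 16.2 and 18.6 CPM in X2, 13.1, 13.6, 14.5 and 13.6 in X2-PDPN and 3.03, 2.39, 2.92 and 4.18 in CCR7-PDPN. No group overlapped X2, and both single-marker cells were lower than X2, CCR7 (-0.83) more than X2-PDPN (-0.29, both log2). Map2k6, a kinase upstream of stress-activated MAP kinases, fell from 5.10 ± 0.749 CPM in X2 to 2.47 ± 0.520 in CCR7 and from 5.05 ± 0.386 to 1.89 ± 0.199 in X2-PDPN, and stood at 0.321 ± 0.0755 and 0.289 ± 0.159 in CCR7-PDPN. Its CCR7 call (-1.02 on the log2 scale) lay under the fold threshold without X2 replicate 2 (-0.95) or CCR7 replicate 1 (-0.87). Pde4d and Pde5a, phosphodiesterases for cAMP and cGMP, and Psd4, an exchange factor for Arf GTPases, passed the adjusted p in CCR7 but not in X2-PDPN, with log2 fold changes of -0.58, -0.49 and -0.87 in CCR7.

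Shank2 (ENSMUSG00000037541, chromosome 7, 144001928 to 144424494), a scaffold of synapses, had 14.3, 13.7, 14.0 and 13.2 CPM in X2, 4.75, 5.47, 4.88 and 4.44 in CCR7 and 1.59, 1.24, 1.01 and 1.47 in CCR7-PDPN of batch 1. In batch 2 Shank2 had 14.6, 14.3, 14.5 and 14.8 CPM in X2, 16.0, 15.7, 18.6 and 17.6 in X2-PDPN and 1.36, 1.18, 1.70 and 1.38 in CCR7-PDPN. It fell in CCR7 (log2 fold change -1.47, SE 0.09, adjusted p = 4.97e-12, edgeR) and was slightly higher than X2 in X2-PDPN (log2 fold change 0.23, SE 0.06, adjusted p = 0.00180, edgeR). Fam107b (ENSMUSG00000026655, chromosome 2, 3570488 to 3782142) had 18.4, 16.3, 16.6 and 18.4 CPM in X2, 4.34, 3.89, 4.82 and 4.40 in CCR7 and 1.34, 1.11, 1.19 and 1.44 in CCR7-PDPN of batch 1. In batch 2 Fam107b had 17.2, 17.2, 18.1 and 17.8 CPM in X2, 3.93, 3.89, 3.76 and 4.19 in X2-PDPN and 1.14, 1.21, 1.19 and 0.873 in CCR7-PDPN. Here both single-marker cells were low, by almost the same amount (-1.98 and -2.15 on the log2 scale), and the double-positive cells lower still.

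Cyfip2 (ENSMUSG00000020340, chromosome 11, 46193850 to 46312859), a subunit of the actin-regulating WAVE complex, had 8.95, 8.46, 9.56 and 9.32 CPM in X2, 12.7, 15.9, 14.3 and 14.1 in CCR7 and 1.16, 1.75, 1.68 and 1.54 in CCR7-PDPN of batch 1. In batch 2 Cyfip2 had 10.3, 9.31, 9.20 and 8.60 CPM in X2, 10.4, 8.76, 10.4 and 9.75 in X2-PDPN and 1.58, 1.47, 1.82 and 1.09 in CCR7-PDPN. It rose in CCR7 (log2 fold change 0.67, SE 0.08, adjusted p = 6.87e-07, edgeR), and X2-PDPN overlapped X2. Mapt, the microtubule protein tau, fell in both single-marker cells (-0.69 and -0.58 on the log2 scale) and stood at 0.587 ± 0.218 CPM in CCR7-PDPN against 3.02 ± 0.202 in X2 of batch 1.

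The 3 members of cell death all fell in CCR7. Casp4 and Casp12, inflammatory caspases, lie side by side on chromosome 9 (5308828 to 5336783 and 5345430 to 5373032), 8.65 kb apart, and are the only members that neighbour each other. Casp4 went from 10.00 ± 0.664 CPM in X2 to 4.40 ± 0.327 in CCR7 and 1.06 ± 0.131 in CCR7-PDPN, and in batch 2 from 9.45 ± 0.449 in X2 and 7.62 ± 0.295 in X2-PDPN to 1.06 ± 0.345. Casp12 went from 4.44 ± 0.412 to 2.13 ± 0.329 and 0.509 ± 0.0439 CPM, and in batch 2 from 3.95 ± 0.248 and 3.75 ± 0.505 to 0.259 ± 0.161. The Casp12 call in CCR7 (-1.04 on the log2 scale) lay under the fold threshold without X2 replicate 1 (-0.995), CCR7 replicate 1 (-0.96) or CCR7 replicate 2 (-0.98). Pmaip1, which encodes the BH3-only protein Noxa, fell in CCR7 from 6.40 ± 0.663 to 2.01 ± 0.382 CPM and in X2-PDPN from 6.55 ± 0.272 to 2.14 ± 0.327 (log2 fold change -1.67, SE 0.14, adjusted p = 1.21e-09, and log2 fold change -1.61, SE 0.12, adjusted p = 7.48e-16, edgeR). It had 0.113 ± 0.0723 and 0.212 ± 0.0704 CPM in CCR7-PDPN, the deepest ratio to X2 in batch 1, 56.6 times lower, against 30.9 times in batch 2.

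In the extracellular matrix group, Thbs2, thrombospondin-2, was 2.23 ± 0.219 CPM in X2, 2.64 ± 0.241 in CCR7 and 0.113 ± 0.0643 in CCR7-PDPN of batch 1, and 2.56 ± 0.116, 4.12 ± 0.146 and 0.102 ± 0.0528 in X2, X2-PDPN and CCR7-PDPN of batch 2. It rose in X2-PDPN (log2 fold change 0.69, SE 0.12, adjusted p = 3.44e-06, edgeR). Adamts7, a secreted metalloproteinase, fell in both single-marker cells (-1.15 and -1.24 on the log2 scale), and Hpse, heparanase, in CCR7 (-0.74). Among the remaining members, Apobec1, an RNA-editing cytidine deaminase, fell in both (-1.48 and -2.01). Gsap, a gamma-secretase activating protein, fell in CCR7 (-1.04), a call that lay under the fold threshold without X2 replicate 4 (-0.97), CCR7 replicate 3 (-0.99) or CCR7 replicate 4 (-0.97). Aig1, a lipid hydrolase, and Ces2g, a carboxylesterase, passed the adjusted p in CCR7 but not in X2-PDPN, Ces2g only with CCR7 replicate 1 in the fit (-0.49 and -0.55), and Hsd17b11, a hydroxysteroid dehydrogenase, rose in X2-PDPN (0.39).

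How much of the low level would follow if the single-marker ratios multiplied was described, with no test, since the rule uses the same values. The product of CCR7 over X2 and X2-PDPN over X2 was compared with CCR7-PDPN over X2. The rule nearly fixes the outcome for members. In batch 1 the comparison equals CCR7-PDPN over CCR7, which the rule caps, divided by X2-PDPN over X2. A member then lies below the product unless X2-PDPN over X2 is within the ratio limit. Only Fam107b, Apobec1 and Pmaip1 were not bound. In batch 2 CCR7 over X2 decides, and only Fam107b, Prrx1, Tbx4, Gli2 and Pmaip1 were not bound. Other genes face no such limit, so their medians do not judge the members. In each batch 35 of the 36 genes stood below the product, with a median log2 distance of -2.10 in batch 1 and -1.84 in batch 2, where the 10924 genes had medians of 0.01 and 0.02. Fam107b was the exception, at 0.38 and 0.16 above the product. Thbs2 lay farthest below it, at -5.23 and -5.57, followed in batch 1 by Il7 at -4.30 and Amigo2 at -3.97.

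**Figure D4:**
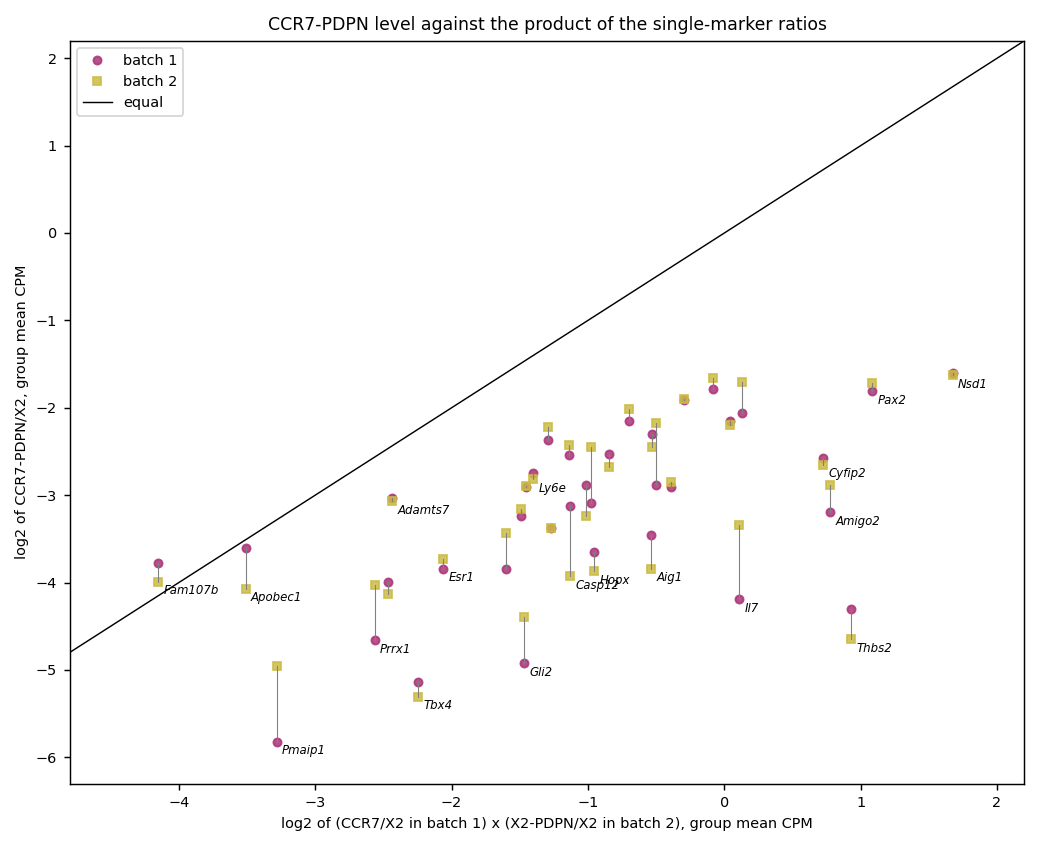
Log2 of CCR7-PDPN over X2 in each batch (y axis) against log2 of the product of the 2 single-marker ratios (x axis) for the 36 genes, from group mean CPM, with a line joining the batches of a gene and the diagonal where both are equal. Fam107b sits a little above the diagonal, and Thbs2, Il7, Amigo2 and Nsd1 sit far under it.

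The annotation (GENCODE vM21) lists another gene over 18 of the members. None of these that were counted in batch 1 reached a mean of 1 CPM over its 12 libraries, CCR7-PDPN included. Pced1b, on the strand opposite to Amigo2, came closest at 0.933 CPM, and the study lists it as lower in CCR7-PDPN than in CCR7. The strand setting of the counting is not known, so shared reads at Amigo2 were not excluded. All 36 genes are protein coding, as are 94.3% of the 10924, and they lie on 16 chromosomes. Their nearest neighbours among the 10924 genes had a median CCR7-PDPN to X2 ratio of 0.955 in batch 1 and 0.936 in batch 2, close to the 0.980 and 0.980 of all. One neighbour outside the set, Ly6a, was at or under 1/2 in all 4 ratios, as were 0.413% of the genes outside the set. Ly6a lies between Ly6e and Ly6c1 on chromosome 15 (74994877 to 74998031) and is a paralogue of them, so reads could be shared between these genes. Ly6c1 itself, another membrane-anchored protein, had 2.73 ± 0.535, 1.09 ± 0.201 and 0.190 ± 0.0645 CPM in X2, CCR7 and CCR7-PDPN of batch 1. Ly6a went from 6.18 ± 0.470 CPM in X2 to 1.59 ± 0.251 in CCR7 and 0.609 ± 0.232 in CCR7-PDPN, and in batch 2 from 5.97 ± 0.639 in X2 and 7.98 ± 1.12 in X2-PDPN to 0.716 ± 0.184.

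Gene families of some members, chosen after the members were known, were looked at for level only. Casp1, next to Casp4 on chromosome 9 (5298508 to 5307290), was kept out of the set by a CCR7 mean under 1 CPM. It had 2.85 ± 0.226 CPM in X2, 0.533 ± 0.104 in CCR7 and 0.107 ± 0.0434 in CCR7-PDPN of batch 1, and 3.03 ± 0.550, 5.14 ± 0.524 and 0.143 ± 0.0680 in X2, X2-PDPN and CCR7-PDPN of batch 2. The 3 caspases of this stretch thus stood low together in the double-positive cells. The 5 other caspases with reference means of at least 1 CPM, which lie on other chromosomes, had CCR7-PDPN to X2 ratios of 0.996 to 1.49.

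In other families the members' own low ratio of CCR7-PDPN to X2 was set by the rule. The relatives named here, except Pde4b, stood higher than the members of their family. Gli3 had a ratio of 0.989 in batch 1 and Gli1 0.410, against 0.0331 for Gli2. Hivep1 and Hivep2 stood at 1.19 and 1.36, Nsd2 and Nsd3 at 0.974 and 0.803, and Cyfip1 at 0.947. The 6 other MAP kinase kinases had ratios of 0.811 to 1.52, against 0.0629 for Map2k6, and Tbx1, Tbx3 and Tbx15 had 0.787 to 1.13. Thbs3 stood at 0.396. Pde4b was as low as a member against X2, at 0.0503, but had fallen so far in CCR7 (1.15 CPM against 10.4 in X2) that its ratio to CCR7 was 0.454.

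Genes that share a pathway with Il7, Bicd1 or Bche were taken from lists of common gamma chain signalling, dynein adaptors and subunits, and cholinergic genes. Il7r, the receptor chain of interleukin-7, had at most 1 count in any batch 1 library. For these lists too, 3.30% of all genes were called higher and 3.18% lower in CCR7, and 3.51% and 1.55% in X2-PDPN. Besides Il7, 8 genes of the gamma chain list were tested, and 1 was called higher in CCR7 and in X2-PDPN, Il2rg, the shared receptor chain, with 1.49 CPM in X2 and 3.37 in CCR7 of batch 1. Of 34 dynein genes 0 were called in CCR7 by edgeR, although 9 were lower and 14 higher at an unadjusted p under 0.05, and 1 was called in X2-PDPN, Bicd1 itself. By the adjusted p alone 6 dynein genes were lower and 14 higher in CCR7, where 25.2% and 24% of all genes were. Of 9 cholinergic genes 2 were called higher in CCR7, Bche and the receptor subunit Chrng, and 1 lower in X2-PDPN, Bche. Of 55 interferon-stimulated genes outside the set, 16 were called lower in CCR7 and 36 in X2-PDPN, where 3.18% and 1.55% of all genes were. Their median log2 fold changes were -0.61 and -1.42. In CCR7-PDPN against X2, 41 were called lower in each batch, where 5.36% and 5.67% of all genes were. In CCR7-PDPN against X2-PDPN their median was -0.06, with 9 called lower and 2 higher. The share of all genes called in that comparison was not computed, so these counts are not judged. The rule asks a member for an X2-PDPN mean of at least 1 CPM and at least 3 times CCR7-PDPN, which was not asked of the list. The list and the members are therefore not compared in X2-PDPN.

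Markers of other cells differed by list. Leukocyte markers were low: of 14, 3 had no count in batch 1 (Cd3e, Cd8a and Ms4a1) and Ptprc had at most 4 counts in a library. Their sum was 1.32 to 1.51, 2.40 to 2.87 and 3.14 to 4.03 CPM in X2, CCR7 and CCR7-PDPN of batch 1. Cd79a had means of 0.499, 2.34 and 3.26 CPM there, so it carried most of the sum in CCR7 and CCR7-PDPN but not in X2. In batch 2 only Cd79a and Itgax were in the table, and they summed to 0.894 to 1.33, 2.21 to 2.44 and 2.76 to 3.42 CPM in X2, X2-PDPN and CCR7-PDPN. The sum was highest where the members were lowest, but through Cd79a alone, with means of 0.578, 1.94 and 2.94 CPM. Itgax went the other way, with means of 0.560, 0.381 and 0.153 CPM. The 8 endothelial markers summed to 1.93 to 2.57, 2.00 to 2.56 and 1.99 to 2.54 CPM in X2, CCR7 and CCR7-PDPN of batch 1. The 4 of them in both tables summed to 1.48 to 2.76 CPM over all libraries, and the ranges of the groups overlapped. Among 10 fibroblast and stromal markers Pdgfra and Pdgfrb were high in every group, while Lum, Thy1 and Ccl21a had 0 counts in batch 1. In X2, X2-PDPN and CCR7-PDPN of batch 2, Col1a1 stood at 2.11, 5.40 and 1.69 CPM and Cspg4 at 0.989, 2.29 and 1.01. Pdgfra was also highest in X2-PDPN, at 162, 181 and 154 CPM, and Pdgfrb lowest there, at 68.7, 55.6 and 63.1. The 10 summed to 227 to 233, 226 to 258 and 206 to 221 CPM in X2, CCR7 and CCR7-PDPN of batch 1, and the 4 in both tables to 230.1 to 238, 238 to 254 and 214 to 229 CPM in X2, X2-PDPN and CCR7-PDPN of batch 2. The 12 epithelial markers, mostly Krt8, summed to 236 to 243, 232 to 279 and 287 to 306 CPM in the batch 1 groups, and the 3 in both tables (Krt7, Krt8 and Ocln) to 224 to 235, 269 to 293 and 283 to 303 CPM in those of batch 2. The higher sum in CCR7-PDPN came from Krt8. Krt7 went the other way, with means of 2.25, 1.35 and 0.929 CPM in the batch 1 groups and 1.99, 1.19 and 1.03 in those of batch 2. The part of these shifts in the members' levels was not tested.

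The edge of the set was not sharp. Just inside, the largest of the 4 ratios was 0.329 for Rhd and Nsd1, 0.323 for Mapt, 0.321 for Pde5a and 0.320 for Fcer2a. Just outside were Lrrc4b at 0.340, Car12 at 0.342, Ubash3b at 0.344 and Tm4sf1 at 0.350. Car12, a carbonic anhydrase, was at 24.7 CPM in X2, 21.7 in CCR7 and 6.44 in CCR7-PDPN of batch 1.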

How the data were processed

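The authors deposited raw counts of reads per Ensembl gene for each library, as whole numbers without normalization or pooling of replicates, in 1 table per batch. Per the labels and the study's methods, single-end reads of 75 bases from stranded libraries were mapped to GRCm38, and the batch 1 table has the layout that featureCounts writes. The aligner, the strand setting of the counting, the annotation release and the filter behind the shorter batch 2 table are not given in the sources used here. Library totals lay between 22275468 and 35721027 counts, so 3 counts, used as a floor, stood for at most 0.135 CPM, for counting error only.

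From these counts CPM, group means and TPM (with the deposited exonic lengths) were computed, and the rule was applied. The members and the gene lists were chosen with earlier results of these data known, and roles, families and printed promoters after the members' values were seen. edgeR 4.0.16 in R 4.3.3 fitted the 12 libraries of each batch, or all 24 for the difference between changes, with TMM factors, filterByExpr, robust quasi-likelihood tests and Benjamini-Hochberg adjustment over 13261, 13314 or 13690 genes. The method was tested on simulated data. Alternatives were DESeq2 1.42.0, RLE factors, no filter on low counts, a replicate block, fewer groups in the fit, no fold threshold, other cutoffs of the rule, and each library left out in turn.

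Genes given library by library were Il7, Bicd1, Bche and the 9 members of highest mean CPM in the reference groups. The next 5 genes on each side of the ratio limit were to be named, of which 1 is not reported here. Lists covered common gamma chain, dynein, cholinergic and interferon-stimulated genes and leukocyte, endothelial, fibroblast and epithelial markers. Promoters came from RefSeq (GRCm38.p6), and coordinates from the deposited table. Figures were made with matplotlib 3.10.9.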

Additional observations from a re-analysis of the deposited data

Results flagged for a closer look

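In 8 of 228 combinations of a gene (members and proposed marks) and a group of 4 libraries, 1 library lay far from the other 3 by Dixon's test, which flags about 1 group in 20 by chance. Chn1 was 10.3 CPM in CCR7 replicate 4 against 8.37 to 8.62 in the others. Hsd17b11 was 6.58 CPM in X2-PDPN replicate 2 against 5.90 to 5.93, and Ly6c1 was 2.63 CPM in the same library against 2.16 to 2.24. In X2 of batch 1, Ly9 was 6.21 CPM in replicate 1 against 5.70 to 5.75, and Hopx 3.73 CPM in replicate 2 against 3.89 to 3.92. In CCR7-PDPN of batch 1, Clec1a was 1.88 CPM in replicate 1 against 2.40 to 2.51, and Aig1 0.768 CPM (22 counts) in replicate 3 against 0.267 to 0.349. Map2k6 was 0.527 CPM (12 counts) in CCR7-PDPN replicate 1 of batch 2 against 0.188 to 0.223.

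The change from X2 differed between X2-PDPN and CCR7 for 8 members by edgeR's test of that difference (log2 scale, X2-PDPN change minus CCR7 change): Gli2 by 2.64, Hopx by 2.15, Tbx4 by 2.14, Prrx1 by 1.99, Shank2 by 1.70, Amigo2 by 1.14, Gsap by 1.11 and Ly6c1 by 1.07. CCR7 was sequenced in batch 1 and X2-PDPN in batch 2, each beside its own X2.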

How the results depend on the processing

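Without a fold threshold, 6534 genes differed between CCR7 and X2 (859 with it), 7560 between X2-PDPN and X2 (673) and 6399 in the difference of these changes (1083), with 27 members lower and 4 higher, 13 lower and 8 higher, and 20 higher and 3 lower. The set numbered 36 genes at a ratio of 1/3, 81 at 1/2, 20 at 1/4 and 23 with reference means of at least 2 CPM. With TMM-scaled totals it held 35 of the 36, with medians 34, and without any 1 library 34 to 37 genes, of which 33 to 36 were shared. The numbers of libraries did not pair them (correlations of same-numbered libraries -0.25 to 0.27, 6 of 24 over 0.1). The replicate block gave 854, 671 and 1075 genes and the same counts of members, 14 and 6 lower and 8 higher in the difference. Of 504 member results under the block, DESeq2, RLE factors, no filter or only the groups compared, all 504 kept direction and call.

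Without single libraries, members called lower in CCR7 numbered 12 to 14 and in X2-PDPN 6, members higher in X2-PDPN 0 to 1 (Amigo2, without X2 replicate 3 or X2-PDPN replicate 4), and members called in the difference 7 to 9. Of 1152 member results 1120 kept direction and call, and 15, all near 0, changed sign. These were Il7 in CCR7 (-0.060 to 0.017), and in X2-PDPN Hivep3 (-0.068 to 0.017), Rhd (-0.018 to 0.069), Tbx4 (-0.083 to 0.0075), Gsap (-0.038 to 0.14), Fcer2a (-0.0076 to 0.13), Ces2g (-0.028 to 0.10) and Psd4 (-0.18 to 0.019). In the difference they were Nsd1 (-0.013 to 0.16), Ly9 (-0.15 to 0.057), Pmaip1 (-0.010 to 0.18) and Mapt (-0.014 to 0.18). Counts of a few reads limit the CCR7-PDPN levels of members under 1 CPM.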
